A study of Mus musculus with 24 samples.

Results

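Interferon-stimulated genes were followed through the livers of 4 mouse genotypes injected with the thyroid hormone T3 or with saline. The set held 39 gene symbols, chosen as genes known to be induced by interferons, and a gene was measured where the array annotation named a probe set for that symbol alone. Of the 39 symbols, 37 had such a probe set, of 18194 genes on the array that did, and all 37 were among the 14157 genes that passed the filter on dim signals and were tested. Isg15 was read only by a probe set shared with another symbol and Ifi44 had no probe set under its symbol, so no value is given for either. Where several probe sets read a gene, as for 17 of the 37, the brightest by its mean over all arrays stood for it.

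Interferons are secreted when a cell senses foreign nucleic acid or when lymphocytes are activated. Type I interferons act through the receptor chains Ifnar1 and Ifnar2 and the kinases Jak1 and Tyk2 on a complex that holds Stat2 and Irf9 and binds the interferon-stimulated response element. Type II interferon acts through the receptor chains Ifngr1 and Ifngr2, and Irf1 is among the factors it induces. The induced genes include sensors of viral RNA and DNA, antiviral enzymes, immunity-related and guanylate-binding GTPases, the ubiquitin-like protein Isg15 with its handling enzymes, and the peptide supply for class I antigen presentation. In liver, hepatocytes and the resident macrophages (Kupffer cells) both hold this programme, and a low level of it is present without infection.

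The mutants altered the thyroid hormone receptor beta: KO mice were receptor knockouts, GS mice carried the exchanges E125G and G126S, which are known to prevent DNA binding, and Y147F mice carried that single exchange, which is known from the study to leave DNA binding in place while removing a signalling route through phosphoinositide 3-kinase. WT mice had the unaltered receptor. KO, GS and WT mice had a C57BL/6J background, were 8 to 9 weeks old males, and were made hypothyroid over 3 weeks with 0.02% methimazole, 0.5% perchlorate and 0.3% saccharine in the water and a diet low in iodine. They received 20 µg T3 per 100 g body weight or phosphate-buffered saline (PBS) into the peritoneum, and livers were taken after 6 hours. Y147F mice were C57BL/6JCrl males of 10 to 11 weeks, treated over 3 weeks with 0.05% methimazole and 1% perchlorate and the same diet, given 200 ng T3 per g body weight or PBS, and sampled after 6 hours. Their arrays were submitted later, so in each direct difference between Y147F and WT the genotype, the substrain, the age, the treatment scheme and the submission cannot be told apart. In the difference of their T3 responses the genotype, the substrain, the age and the treatment scheme cannot be told apart either. Every mouse of the series was hypothyroid, with or without the single dose of T3. Each of the 8 groups had 3 arrays, each array carrying its own animal number in its title.

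Hepatocyte markers averaged 14.17 to 14.31 on the log2 scale on all 24 arrays, while the median probe set of each array lay between 5.88 and 6.00. Arrays of 1 group correlated at 0.995 to 0.9973 over 17744 genes. The Thrb probe set did not check the knockout: it read 6.96 ± 0.15 in KO against 6.66 ± 0.25 in WT after T3, and 6.99 ± 0.23 in KO against 6.80 ± 0.19 in WT after PBS (log2, SD, n = 3 each). The number of arrays, 3 a group, limits the precision of each value below.

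In bulk liver, fewer cells of a type and less RNA per cell cannot be told apart. The brightest of the 37 genes was Iigp1, an immunity-related GTPase, at a mean of 12.08 over all arrays, followed by Ifi35 at 10.86 and Bst2, a tethering protein that holds budding viruses at the cell surface, at 10.80. The dimmest was Mx1, an antiviral GTPase that is defective in most laboratory strains, at 5.45, close to the 40th percentile of the arrays (5.33 to 5.45) that served as the filter. Probe sets differ in brightness for technical reasons, so the order of the genes describes signals and not amounts of RNA.

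**Figure D1:**
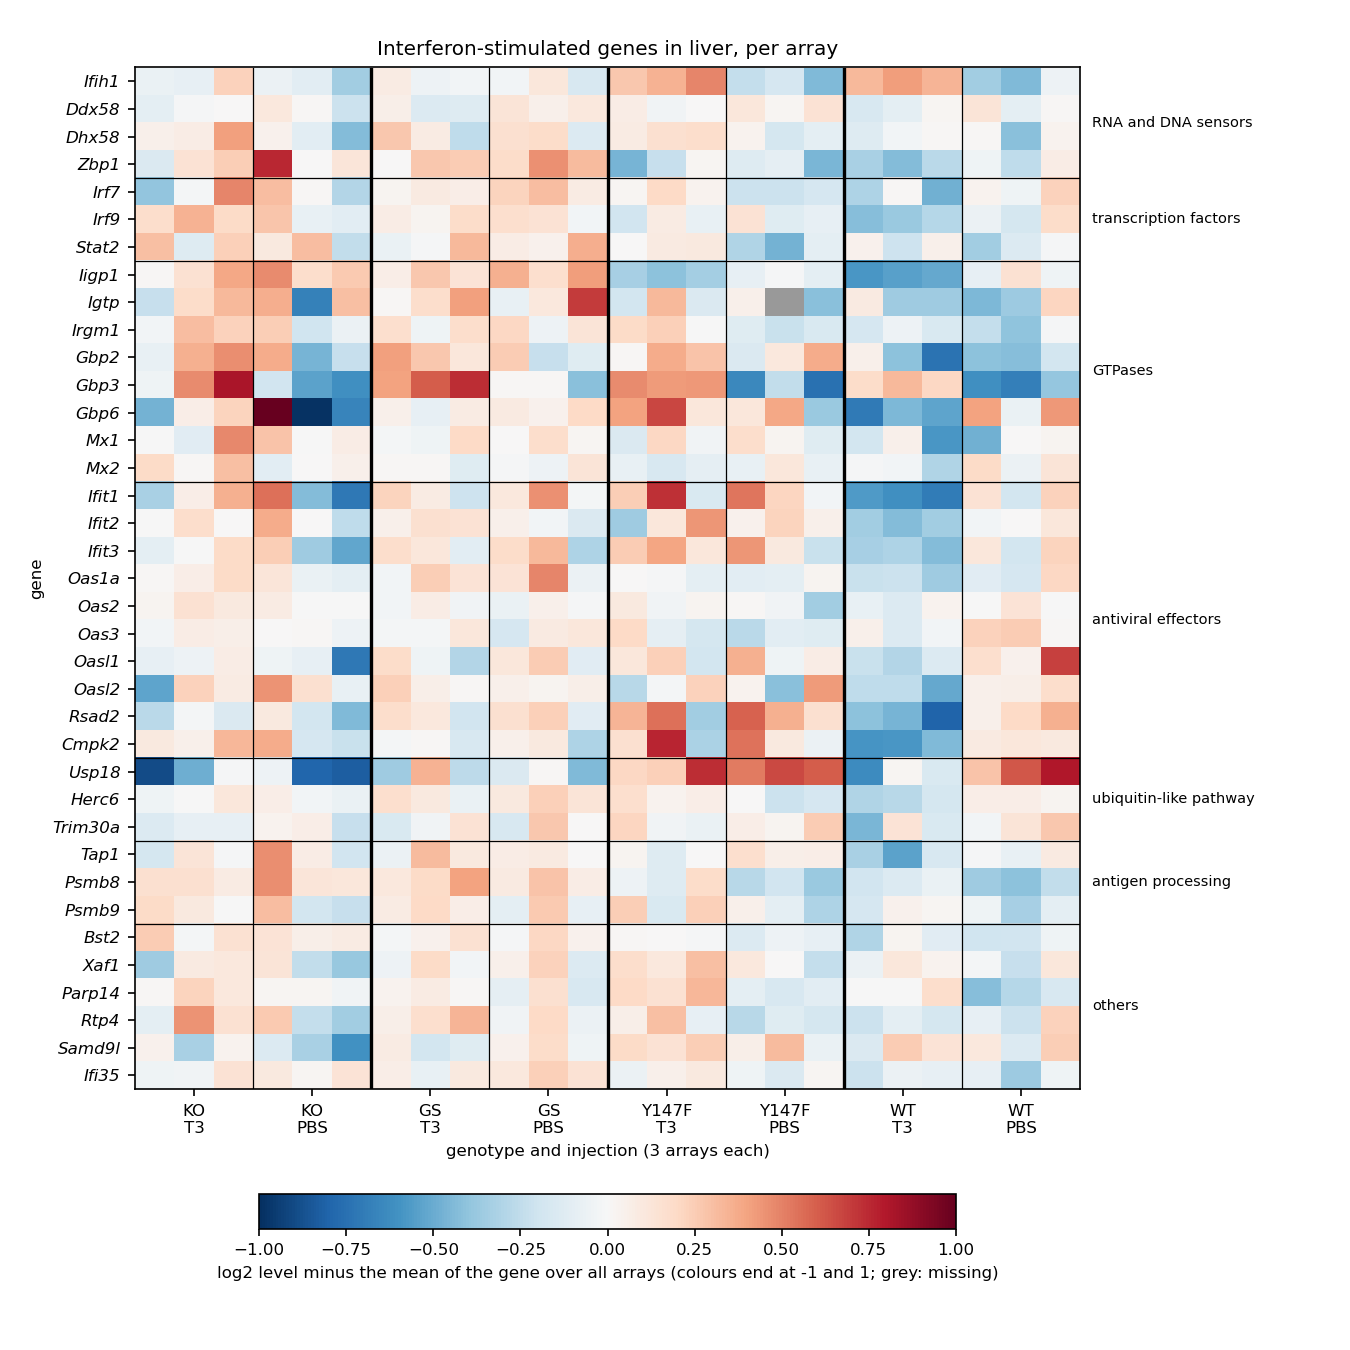
Log2 level of each of the 37 interferon-stimulated genes (rows, by role) on each of the 24 arrays (columns, by genotype and injection), minus the mean of the gene over all arrays. The 3 arrays of WT with T3 are blue for the antiviral effectors other than Oas2 and Oas3, and replicate 1 of KO with PBS is darker red than its group for Gbp6, Ifit1 and Zbp1.

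The first comparison asked what a single dose of T3 did to these genes in WT liver. T3 moved them in opposite directions: the RNA sensor Ifih1, the GTPase Gbp3 and Parp14 were higher after T3, and Iigp1, Rsad2, Usp18, Herc6, Irf9 and Cmpk2 were lower. That made 9 of 37 genes called (limma, adjusted p under 0.05 over all genes tested), 3 higher and 6 lower, where 10.6% of all genes tested were called, 5.72% higher and 4.9% lower. The median difference of the 37 genes was -0.20 (log2), against -0.03 for all genes tested. For 19 of the 37 genes every T3 array lay on the same side of every PBS array, which held for 29.5% of all genes.

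Among the sensors, Ifih1 (MDA5, which binds long double-stranded RNA) read 10.18, 10.28 and 10.20 in WT with T3, against 9.51, 9.42 and 9.81 in WT with PBS (log2). The T3 arrays all lay above the PBS arrays. The difference was 0.64 ± 0.11 (SE), a 1.56-fold higher level (limma, adjusted p = 0.000352). The other 3 sensors, Ddx58 (RIG-I), its regulator Dhx58 and the nucleic acid sensor Zbp1, were not called, with differences of -0.10, 0.08 and -0.27, none at an unadjusted p under 0.05.

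Gbp3, a guanylate-binding protein, read 7.56, 7.70 and 7.58 in WT with T3, against 6.76, 6.69 and 6.99 in WT with PBS. The groups stood apart by more than their own range. Its difference of 0.80 ± 0.17 was a 1.74-fold higher level (limma, adjusted p = 0.00365). Iigp1, the immunity-related GTPase known for its attack on vacuoles of intracellular parasites, went the other way, with 11.50, 11.54 and 11.57 with T3 against 12.00, 12.23 and 12.04 with PBS. The T3 arrays lay closely together and below every PBS array. The difference was -0.55 ± 0.09, a 1.47-fold lower level (limma, adjusted p = 0.000305), and the second probe set of Iigp1 gave -0.63. The other 6 GTPases were not called, and ranged between -0.82 for Gbp6 and 0.09 for Irgm1; Gbp6 read 7.33, 7.59 and 7.51 with T3 against 8.44, 7.97 and 8.47 with PBS (adjusted p = 0.137).

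The 10 antiviral effectors, most of which act on viral RNA or its building blocks, all had lower means after T3 in WT. They lay between -0.76 and -0.10, with a median of -0.42. Rsad2 and Cmpk2 fell by the test and 9 of the 10 had an unadjusted p under 0.05, against 23.2% of all genes. Like all lists here, this group was drawn up with earlier results of these data known, so its shared direction is a description and not a test. Antiviral genes placed in other groups were not called: Bst2 gave 0.02, Mx1 -0.09 and Mx2 -0.20. Rsad2 (viperin, which makes a chain-terminating nucleotide) read 7.83, 7.78 and 7.44 with T3 against 8.29, 8.44 and 8.60 with PBS, with no overlap. Its difference was -0.76 ± 0.19, a 1.69-fold lower level (limma, adjusted p = 0.00942), and its other probe sets gave -0.54 and -0.97. Cmpk2, a mitochondrial nucleotide kinase whose gene neighbours Rsad2, read 6.42, 6.43 and 6.57 with T3 against 7.10, 7.12 and 7.11 with PBS, again with no overlap. The difference of -0.64 ± 0.20 sat at the threshold (limma, adjusted p = 0.0445), and its dimmer probe set gave -0.21. Oasl1, an inhibitor of Irf7 translation in mouse, lay just outside with -0.52 (adjusted p = 0.0679). The RNA-binding Ifit1, Ifit2 and Ifit3 gave -0.69, -0.41 and -0.41 and were not called.

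Usp18, the protease that removes Isg15 from proteins and blocks Ifnar2, read 8.04, 8.69 and 8.52 in WT with T3, against 8.96, 9.29 and 9.47 in WT with PBS. The lowest PBS array lay above the highest T3 array. The difference was -0.82 ± 0.24, a 1.77-fold lower level (limma, adjusted p = 0.0308). Herc6, the ligase that attaches Isg15 in mouse, read 7.45, 7.48 and 7.58 with T3 against 7.82, 7.82 and 7.78 with PBS. This was a small but even shift of -0.30 ± 0.07 (limma, adjusted p = 0.00759), and its other probe sets gave -0.29, -0.10 and -0.19.

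Of the 3 transcription factors, Irf9 read 8.35, 8.40 and 8.49 in WT with T3 against 8.72, 8.60 and 8.96 in WT with PBS, without overlap. It was lower by -0.35 ± 0.11 (limma, adjusted p = 0.0419). Irf7 (-0.34) and Stat2 (0.13) were not called. Among the remaining genes Parp14, a mono-ADP-ribosyltransferase, read 8.05, 8.05 and 8.23 with T3 against 7.63, 7.77 and 7.90 with PBS. Its difference was 0.35 ± 0.08 (limma, adjusted p = 0.00852). Limma called 0 of 3 antigen-processing genes, 1 of them at an unadjusted p under 0.05: the peptide transporter Tap1 gave -0.34 and the immunoproteasome subunits Psmb8 and Psmb9 gave 0.20 and 0.12.

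The calls of Ifih1, Gbp3, Iigp1 and Herc6 held in each of 6 fits without 1 WT array, although Herc6 lost its call when its 4 probe sets were averaged (adjusted p = 0.161). Rsad2 lost it without replicate 3 of WT with T3 (0.063), Parp14 without that array (0.0603) and without replicate 1 of WT with PBS (0.0643), Usp18 in 4 of the 6 (up to 0.152), Irf9 in 5 (up to 0.201) and Cmpk2 in all 6 (0.0759 to 0.124); without replicate 3 of WT with T3 alone, 4 of the 37 genes were called.

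The starts of Ifih1, Gbp3 and Rsad2, called in WT in opposite directions, are shown because their windows hold the interferon-stimulated response element. The windows run from 250 bases before the gene's start to 50 bases from it, along the gene's strand, from RefSeq on GRCm38.p6. Capitals mark GAAANNGAAA, or its reverse complement TTTCNNTTTC.
Ifih1, chr2:62646206-62646505, minus strand: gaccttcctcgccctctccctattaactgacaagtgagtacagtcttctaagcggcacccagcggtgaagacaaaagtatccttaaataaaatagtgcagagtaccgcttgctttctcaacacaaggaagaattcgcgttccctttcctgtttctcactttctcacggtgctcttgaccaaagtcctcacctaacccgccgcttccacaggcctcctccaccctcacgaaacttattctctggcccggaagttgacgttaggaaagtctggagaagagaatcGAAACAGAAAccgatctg
Gbp3, chr3:142559794-142560093, plus strand: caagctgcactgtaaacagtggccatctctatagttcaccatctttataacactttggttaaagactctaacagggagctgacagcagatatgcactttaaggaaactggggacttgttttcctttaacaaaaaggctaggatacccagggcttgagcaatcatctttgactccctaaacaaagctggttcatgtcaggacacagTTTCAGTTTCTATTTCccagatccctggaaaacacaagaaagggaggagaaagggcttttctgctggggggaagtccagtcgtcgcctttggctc
Rsad2, chr12:26456403-26456702, minus strand: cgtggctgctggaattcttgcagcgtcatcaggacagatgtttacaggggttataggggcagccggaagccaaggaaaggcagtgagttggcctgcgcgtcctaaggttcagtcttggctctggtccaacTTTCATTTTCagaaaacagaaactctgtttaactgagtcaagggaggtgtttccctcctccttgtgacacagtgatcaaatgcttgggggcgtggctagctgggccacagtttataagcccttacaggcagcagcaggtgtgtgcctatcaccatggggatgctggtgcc
The element began 32 bases after the start in Ifih1 and 120 bases before it in Rsad2, and Gbp3 held a pair that overlap, beginning 45 and 39 bases before the start. Of the 37 genes, 27 had a window in the table, and 14 of those 27 (51.9%) held the element on either strand, against 3.99% of 27025 genes with windows. The thyroid hormone receptor half-site AGGTCA, searched on both strands, was in 7 of the 27 (25.9%), against 18.1% of genes, and in none of the windows printed here. Of the other genes called in WT, Herc6 and Irf9 held the half-site and Cmpk2 did not, while Iigp1, Usp18 and Parp14 had no window. These letters describe the windows and do not show what binds there.

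The second comparison was T3 against PBS in Y147F liver. Gbp3, Ifih1 and Parp14 rose and Iigp1 fell, while limma called 0 of the 10 antiviral effectors, with 0 at an unadjusted p under 0.05. In all 4 of 37 genes were called, against 11.6% of all genes tested, and 15 of the 37 had groups apart, which 26.0% of all genes had. The median difference was 0.09, against -0.01 for all genes.

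Ifih1 read 10.13, 10.21 and 10.35 in Y147F with T3, against 9.62, 9.69 and 9.42 in Y147F with PBS. The T3 arrays were all higher, by 0.65 ± 0.11 or 1.57-fold (limma, adjusted p = 0.000345). Gbp3 read 7.85, 7.80 and 7.81 with T3 against 6.73, 7.13 and 6.63 with PBS, also without overlap. Its difference of 0.99 ± 0.17 was a 1.99-fold higher level (limma, adjusted p = 0.000526). Parp14 read 8.26, 8.21 and 8.39 with T3 against 7.96, 7.90 and 7.95 with PBS, higher by 0.35 ± 0.08 (limma, adjusted p = 0.00775). These 3 calls held in each of the 6 fits without 1 array.

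Iigp1 read 11.75, 11.67 and 11.74 in Y147F with T3, against 12.00, 12.07 and 11.98 in Y147F with PBS. The arrays did not overlap and the difference was -0.29 ± 0.09 (limma, adjusted p = 0.0451), a call lost in each of the 6 fits without 1 array (0.0736 to 0.136). Herc6 lay just outside the threshold, with 0.22 ± 0.07 (adjusted p = 0.0573). The 10 antiviral effectors lay between -0.19 and 0.15, 4 below and 6 above 0. Rsad2 read 8.58, 8.79 and 7.89 with T3 against 8.83, 8.60 and 8.40 with PBS, so the groups overlapped. Igtp rested on 2 PBS arrays in this genotype, since its cell in replicate 2 could not be restored, and gave 0.18 ± 0.29.

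**Figure D2:**
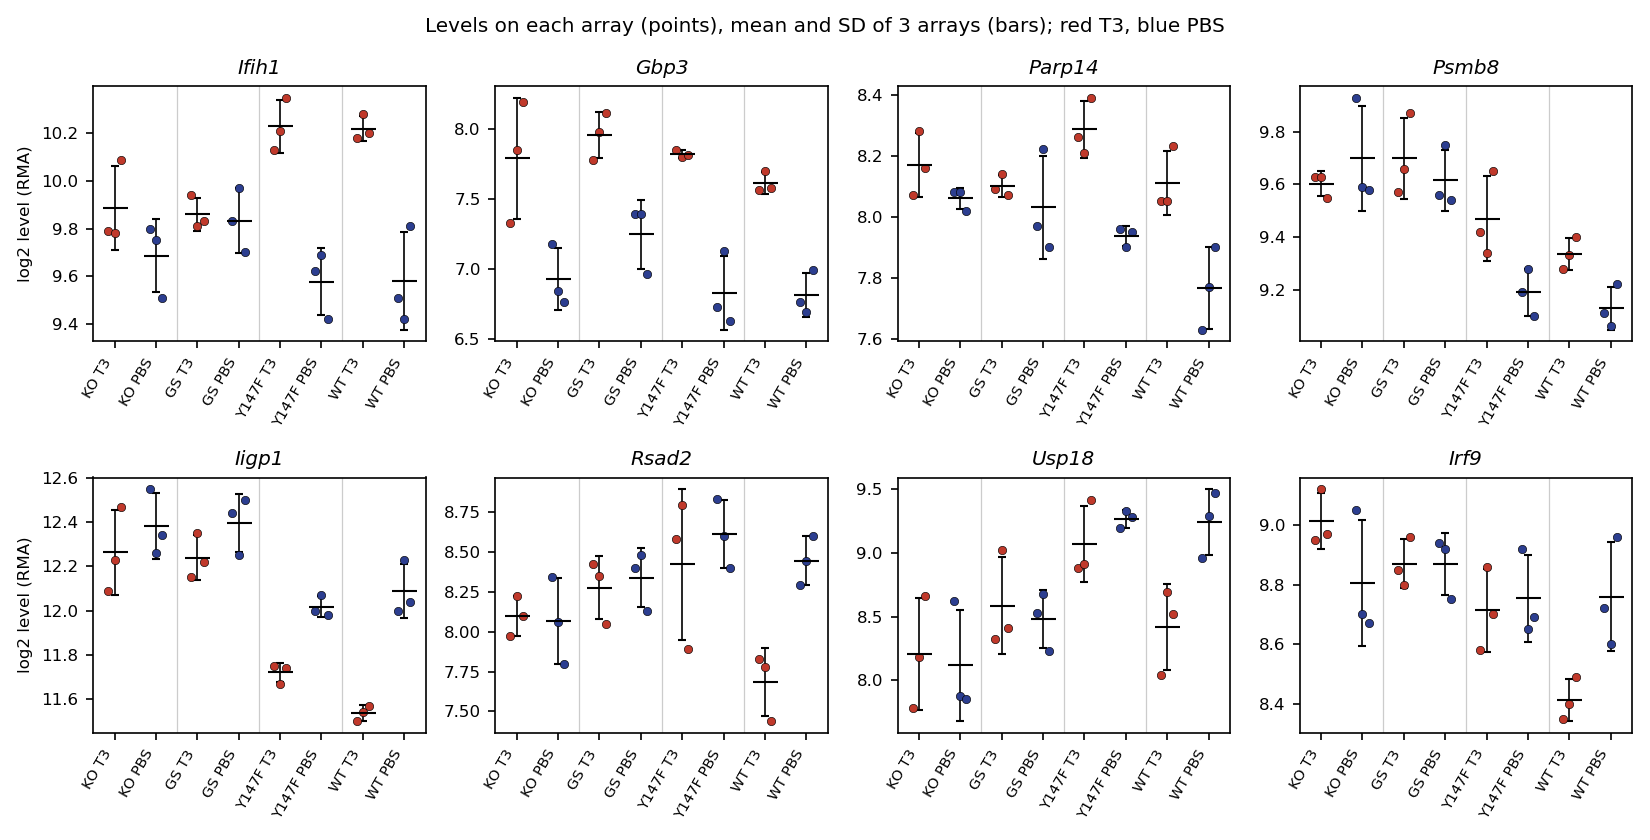
Log2 level of 8 interferon-stimulated genes on each array (points; red T3, blue PBS), with mean and SD of the 3 arrays, by genotype. Ifih1 is high after T3 in Y147F and WT, Gbp3 is higher after T3 in every genotype, and Iigp1 lies lowest in WT with T3, at 11.50 to 11.57.

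In KO liver, T3 raised Gbp3. It read 7.33, 7.85 and 8.19 in KO with T3, against 7.18, 6.84 and 6.76 in KO with PBS, without overlap but with a wide spread among the T3 arrays. The difference was 0.86 ± 0.17, a 1.82-fold higher level (limma, adjusted p = 0.0406), and it made 1 of 37 genes called, against 0.177% of all genes tested. The call was lost without replicate 2 or 3 of KO with T3 (0.0994 and 0.159), without replicate 2 or 3 of KO with PBS (0.166 and 0.16), and in the fit of the KO arrays alone (0.344). Another 2 genes had an unadjusted p under 0.05: the sensor Dhx58 (0.35, adjusted p = 0.412) and the GTPase Mx2 (0.19, adjusted p = 0.479). The genes with groups apart were Gbp3 and Dhx58, 2 of 37, where 15.2% of all genes had groups apart.

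In GS liver limma called 0 of 37 genes, against 0.148% of all genes, and 1 had an unadjusted p under 0.05. This was again Gbp3, which read 7.78, 7.98 and 8.11 in GS with T3, against 7.39, 7.39 and 6.96 in GS with PBS. The T3 arrays were all higher, and the difference was 0.71 ± 0.17, with an adjusted p of 0.18. Of the 37 genes 3 had groups apart, and of all genes 13.1%. Ifih1 gave 0.20 ± 0.11 in KO and 0.03 ± 0.11 in GS, and the antiviral effectors had medians of 0.09 in KO and 0.00 in GS.

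**Figure D3:**
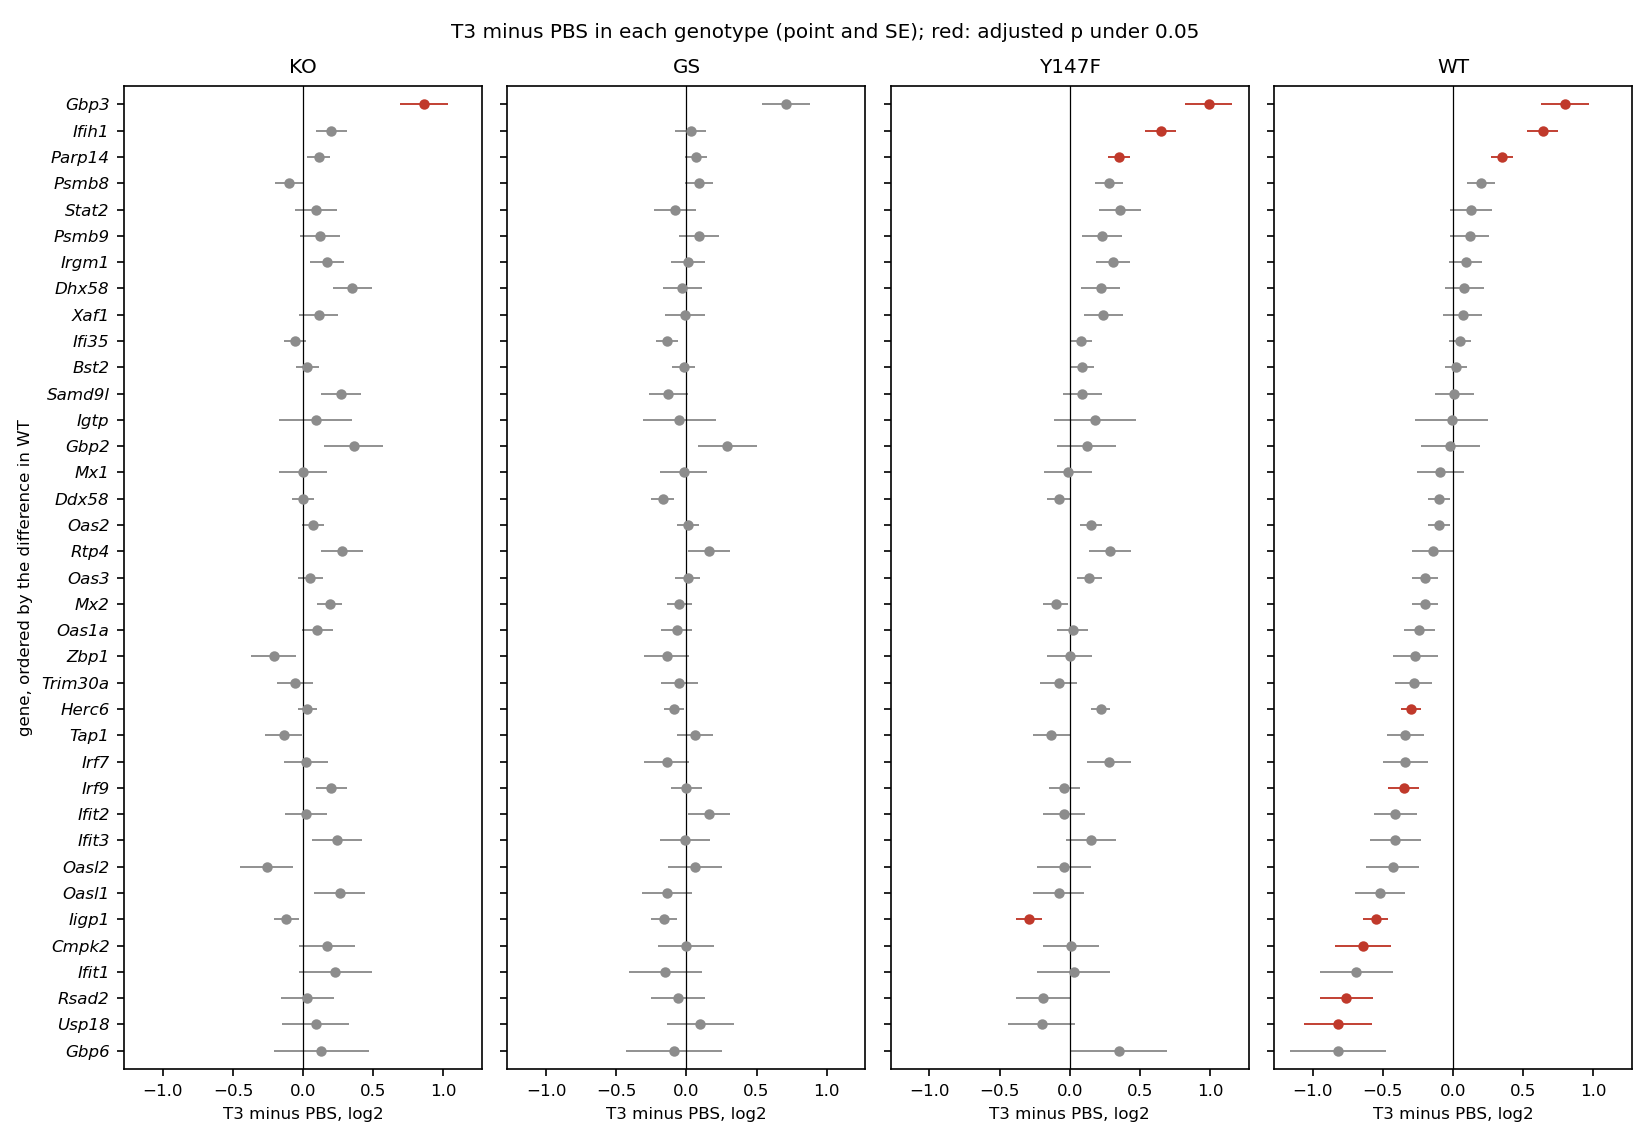
Difference T3 minus PBS (log2, point and SE) of each of the 37 genes in KO, GS, Y147F and WT, with genes ordered by the difference in WT and calls at an adjusted p under 0.05 in red. Gbp3 lies at the right in all 4 panels (0.71 to 0.99), while the genes at the bottom, from Usp18 to Oasl1, lie left of 0 by over 0.5 in WT and near 0 in GS.

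Whether the response itself differed between genotypes was tested as a difference of differences. The response of Ifih1 was lower in GS than in WT: T3 minus PBS was 0.03 in GS against 0.64 in WT, a difference of -0.62 ± 0.15 (limma, adjusted p = 0.0323). It was the 1 gene of 37 called there, against 2.92% of all genes tested, and 10 had an unadjusted p under 0.05. Of 12 fits without 1 array 8 lost the call, namely those without replicates 2 or 3 of GS with T3, 1 or 2 of GS with PBS, 2 or 3 of WT with T3, or 1 or 2 of WT with PBS (adjusted p up to 0.0986). Next came Iigp1 (0.40, adjusted p = 0.131), Ifit2 (0.57, 0.201), Usp18 (0.93, 0.202) and Rsad2 (0.70, 0.218).

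Between KO and WT limma called 0 of 37 response differences, against 3.09% of all genes, and 13 had an unadjusted p under 0.05. The closest was Irf9, at 0.55 ± 0.15 (adjusted p = 0.0517), followed by Iigp1 (0.44, 0.0852), Herc6 (0.33, 0.0924) and Oasl1 (0.78, 0.118). Replicate 1 of KO with PBS stood apart, with a mean over 36 genes of 8.41 against 8.07 and 7.97 on the other KO arrays with PBS. Without it, 4 genes were called, Gbp6 (1.58, adjusted p = 0.00329), Irf9 (0.67, 0.0118), Ifit1 (1.30, 0.0232) and Iigp1 (0.52, 0.0357). All 10 antiviral effectors had a positive response difference in KO against WT (median 0.54) and in GS against WT (median 0.45); both differences use the same 6 WT arrays.

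Between Y147F and WT limma called 0 of 37 response differences and 0.0% of all genes tested, with 8 of the 37 at an unadjusted p under 0.05. All 37 estimates were positive, with a median of 0.23, against 32 with array weights and 35 with the mean of probe sets. Without replicate 1 of WT with T3, or replicate 3 of WT with PBS, 31 were positive. The estimates all share the same 6 WT arrays. Herc6 had the smallest p, with 0.52 ± 0.10 (adjusted p = 0.308), then Irf7 (0.62), Oas3 (0.35) and Gbp6 (1.16), each with an adjusted p of 0.896. Between GS and KO limma called 0 of 37 and 0.0% of all genes, and 1 of the 37, Samd9l (-0.40), had an unadjusted p under 0.05.

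Without T3, the genotypes were compared in hypothyroid mice that received PBS. In KO liver the immunoproteasome subunit Psmb8 was higher and Usp18 lower than in WT. Psmb8 read 9.93, 9.59 and 9.58 in KO with PBS, against 9.11, 9.06 and 9.22 in WT with PBS. No KO array came near a WT array, and the difference was 0.57 ± 0.10, a 1.48-fold higher level (limma, adjusted p = 0.00141). Usp18 read 8.62, 7.88 and 7.85 in KO against 8.96, 9.29 and 9.47 in WT. All KO arrays were lower, by -1.12 ± 0.24 or 2.18-fold (limma, adjusted p = 0.00688), the only one of the calls among these genes, in any of the 16 comparisons, to reach a 2-fold difference. Both calls held without any 1 array. Parp14 was also called, at 8.08, 8.08 and 8.02 in KO against 7.63, 7.77 and 7.90 in WT, a difference of 0.29 ± 0.08 (adjusted p = 0.0396) that lost its call in 5 of 6 fits without 1 array (up to 0.177). These were 3 of 37 genes, against 6.87% of all genes tested, and 8 of the 37 had groups apart, which 23.6% of all genes had. Oasl1 (-0.58, adjusted p = 0.053) and Iigp1 (0.29, 0.0672) lay just outside. Without replicate 1 of KO with PBS, Gbp6 (-1.07), Oasl1 (-0.70) and Samd9l (-0.53) were called in addition and Parp14 was not, 5 genes in all. In the same comparison all 13 Kupffer cell markers had positive differences in KO against WT (median 0.16), 3 at an unadjusted p under 0.05, and their mean was 9.17 to 9.34 in KO with PBS, against 8.98 to 9.06 in WT with PBS. Limma called 1 of the 13, Clec4f (0.59, adjusted p = 0.0498), a call lost in 5 of 6 fits without 1 array (up to 0.179), and the part of these cells in the differences was not tested.

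In GS liver after PBS, Psmb8 read 9.56, 9.75 and 9.54, against 9.11, 9.06 and 9.22 in WT with PBS, again without overlap. It was higher by 0.48 ± 0.10 (limma, adjusted p = 0.00851), with the call lost without replicate 2 of GS with PBS (0.057). Ifi35, a partner of the factor Nmi, read 10.97, 11.10 and 11.01 in GS against 10.78, 10.50 and 10.82 in WT, a difference of 0.33 ± 0.08 (adjusted p = 0.0324) that lost its call in 4 of 6 fits without 1 array (up to 0.198). This made 2 of 37 genes called, against 2.95% of all genes, and 8 with groups apart, which 20.4% of all genes had. Iigp1 (0.31, adjusted p = 0.086) and Usp18 (-0.76, adjusted p = 0.1) followed. KO and GS were set against the same 3 WT arrays.

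Between Y147F and WT after PBS limma called 0 of 37 genes, against 0.0848% of all genes, and 3 had an unadjusted p under 0.05: Oas3 (-0.33, adjusted p = 0.16), Herc6 (-0.18, 0.283) and Gbp2 (0.45, 0.345). Between GS and KO after PBS limma called 0 of 37, against 0.0989% of all genes, with Samd9l (0.41, adjusted p = 0.273) and Herc6 (0.16, 0.533) at an unadjusted p under 0.05.

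After T3, mutant livers were set against WT livers that had received the same injection. Iigp1, Irf9 and Herc6 were higher in KO and in GS than in WT. In KO, 4 of 37 genes were called, all higher, against 6.93% of all genes tested. In GS, 5 of 37 were called, all higher, against 5.61% of all genes. Estimates were positive for 33 of 37 genes in KO and 34 of 37 in GS, with medians of 0.27 and 0.32, against 0.02 and 0.03 for all genes. Ifih1 went the other way, at -0.33 in KO and -0.36 in GS, and was not called. In KO it was called lower without replicate 3 of KO with T3 (-0.44, limma, adjusted p = 0.0282). Groups were apart for 17 genes in KO and 21 in GS, and for 26.9% and 24.8% of all genes. All of these values share the 3 arrays of WT with T3, which had the lowest means over 36 genes, 7.97, 8.04 and 7.99, beside replicate 3 of KO with PBS at 7.97. In KO against WT after T3, limma called 0 of 5 class II antigen-presentation genes, 4 of them at an unadjusted p under 0.05, with means of 9.03 to 9.58 in KO against 8.65 to 9.24 in WT. It also called 0 of 13 Kupffer cell markers, 4 at an unadjusted p under 0.05, with means of 8.88 to 9.27 in KO against 8.74 to 9.04 in WT. Of 8 hepatocyte markers it called Hnf4a (0.43, adjusted p = 0.000711) and Fgb (0.17, 0.0369) higher, with 4 of the 8 at an unadjusted p under 0.05. The Fgb call was lost in each of 6 fits without 1 array. Differences were positive for 3 of the 8 and negative for 5, with a median of -0.01. Their means were 14.19 to 14.24 in KO against 14.18 to 14.22 in WT. In WT, T3 against PBS lowered Hnf4a (-0.37, limma, adjusted p = 0.0014). It did so in Y147F too (-0.24, limma, adjusted p = 0.0391), a call lost in each of 6 fits without 1 array. The part of these shifts in the differences was not tested.

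Iigp1 read 12.09, 12.23 and 12.47 in KO with T3 and 12.15, 12.35 and 12.22 in GS with T3, against 11.50, 11.54 and 11.57 in WT with T3. Every mutant array lay above every WT array. The difference was 0.73 ± 0.09 in KO (limma, adjusted p = 4.72e-05) and 0.70 ± 0.09 in GS (limma, adjusted p = 7.96e-05), and both calls held without any 1 array. Irf9 read 8.95, 9.12 and 8.97 in KO and 8.85, 8.80 and 8.96 in GS, against 8.35, 8.40 and 8.49 in WT, also without overlap. It was higher by 0.60 ± 0.11 in KO (limma, adjusted p = 0.00132) and by 0.46 ± 0.11 in GS (limma, adjusted p = 0.0149). The GS call was lost without replicate 1 or 2 of WT with T3 (0.0578 and 0.0569) or replicate 3 of GS with T3 (0.073).

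Herc6 read 7.71, 7.75 and 7.87 in KO and 7.92, 7.85 and 7.69 in GS, against 7.45, 7.48 and 7.58 in WT, all after T3. The shifts were 0.27 ± 0.07 in KO (limma, adjusted p = 0.0243) and 0.32 ± 0.07 in GS (limma, adjusted p = 0.0123), and neither group overlapped WT. Cmpk2 read 7.11, 7.06 and 7.34 in KO against 6.42, 6.43 and 6.57 in WT, higher by 0.69 ± 0.20 (limma, adjusted p = 0.0395). In GS, the antigen-processing genes Psmb8 and Tap1 were called. Psmb8 read 9.57, 9.66 and 9.87 in GS against 9.28, 9.33 and 9.40 in WT, a difference of 0.36 ± 0.10 (adjusted p = 0.0372). Tap1 read 8.05, 8.43 and 8.21 in GS against 7.79, 7.58 and 7.95 in WT, a difference of 0.46 ± 0.13 (adjusted p = 0.04). Calls that were lost without 1 array were Cmpk2 in all 6 fits (0.07 to 0.133), Psmb8 in 5 (up to 0.179), Tap1 in 4 (up to 0.194), and Herc6 in 4 for KO (up to 0.113) and 3 for GS (up to 0.0637).

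**Figure D4:**
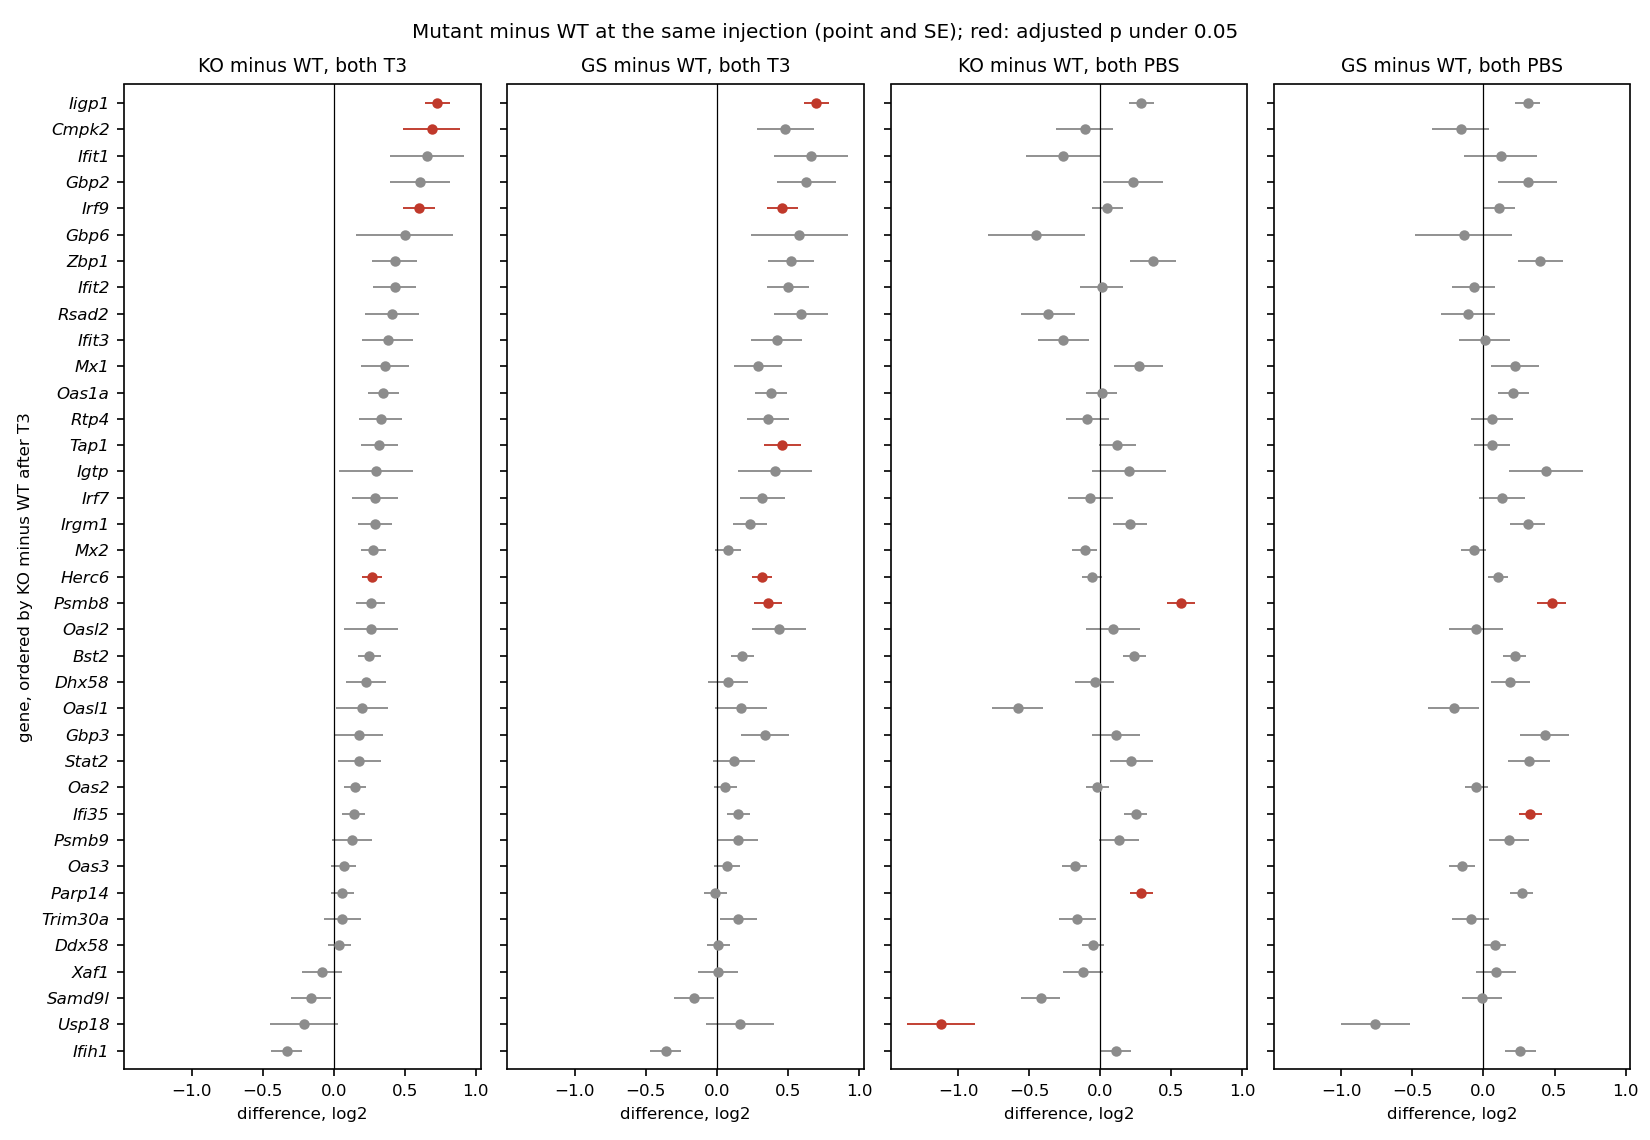
Difference of KO and of GS minus WT (log2, point and SE) for each of the 37 genes, after T3 and after PBS, with genes ordered by KO minus WT after T3 and calls at an adjusted p under 0.05 in red. After T3 most points lie right of 0 and Iigp1 is at 0.73 and 0.70, while after PBS the points lie on both sides and Usp18 reaches -1.12 in KO.

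Between Y147F and WT after T3 limma called 0 of 37 genes, against 0.00706% of all genes, though 13 had an unadjusted p under 0.05 and 17 had groups apart, which 15.2% of all genes had. No estimate was below 0, and the median was 0.21, while 3 were below 0 with array weights and 1 after quantile normalisation. The estimates all share the arrays of WT with T3. Herc6 (0.34, adjusted p = 0.183), Rsad2 (0.74, 0.269), Cmpk2 (0.74, 0.288) and Ifit1 (0.90, 0.339) had the smallest p. Between GS and KO after T3 limma called 0 of 37, against 0.106% of all genes, with Mx2 (-0.20, adjusted p = 0.691) at an unadjusted p under 0.05.

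The upstream genes of the pathway were read from lists of ligands, receptors, factors, sensors and inhibitors. Of 10 interferon ligand genes 6 had a probe set of their own and 2 passed the filter, and in WT, T3 against PBS, limma called 0 of them, with 0 at an unadjusted p under 0.05. Receptors and kinases moved with T3 in WT and in Y147F: of 8 tested, 4 fell and 1 rose in each, where 11.6% of all genes were called in Y147F and 10.6% in WT. Ifnar1, the type I receptor chain, read 8.14, 8.22 and 8.18 in WT with T3, against 8.50, 8.50 and 8.44 in WT with PBS. It fell by 0.30 (log2) in Y147F (adjusted p = 0.0164) and by 0.30 in WT (adjusted p = 0.0182). Ifnar2 (-0.35 in Y147F and -0.25 in WT), the type II chain Ifngr2 (-0.29 in each) and Il10rb (-0.40 in each), a chain of the lambda interferon receptor, fell too. Jak1 rose by 0.34 in Y147F (adjusted p = 0.0138) and by 0.42 in WT (adjusted p = 0.00265). Of these calls, those of Jak1 in WT and Ifnar2 in Y147F held without any 1 array, and each of the others was lost in at least 2 of 6 such fits. In KO and GS, T3 against PBS, limma called 0 of the 8. After T3, Jak1 was lower (-0.44, limma, adjusted p = 0.00366) and Ifnar1 higher (0.29, 0.0319) in KO than in WT. In GS, Ifnar1 and Ifnar2 were higher than in WT (0.28 in each, 0.0463 and 0.0378). Of all genes, 6.93% were called in KO and 5.61% in GS. The response differed from WT for Jak1 in KO (-0.46, 0.0455) and Il10rb in GS (0.65, 0.0295). Of these, only the Jak1 call after T3 held without any 1 array.

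Of 8 further transcription factors tested, Irf1 rose with T3 in both of these genotypes. Irf1 read 10.58, 10.44 and 10.35 in Y147F with T3, against 9.38, 9.41 and 9.73 in Y147F with PBS. It read 10.45, 10.22 and 10.28 in WT with T3, against 9.64, 9.71 and 9.49 in WT with PBS. The arrays were apart in each, by 0.95 ± 0.12 in Y147F (limma, adjusted p = 9.47e-06) and 0.70 ± 0.12 in WT (limma, adjusted p = 0.000236), and both calls held without any 1 array. Of 9 sensors and adaptors, the RNA sensor Tlr3 rose in Y147F (0.38, adjusted p = 0.041) and in WT (0.40, 0.0347), and the kinase Tbk1 rose in WT (0.24, 0.023). Of 7 inhibitors tested, the SUMO ligase Pias1 fell in Y147F (-0.26, adjusted p = 0.0301), the phosphatase Ptpn2 fell in WT (-0.30, 0.0379), and Socs3, which blocks cytokine receptors, and Trim27 were higher in KO than in WT after T3 (1.64, 0.0213, and 0.24, 0.0468). Each of these sensor and inhibitor calls was lost in at least 3 of 6 fits without 1 array.

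Of 38 other interferon-stimulated genes tested, T3 raised 3 and lowered 2 in Y147F and raised 2 and lowered 1 in WT, shares near the 11.6% and 10.6% of all genes called. Of these calls, Pml in Y147F and Trim21 and Trim25 in both genotypes held without any 1 array, while Phf11d (Y147F) was lost in 5 of 6 such fits, Pml in WT in 4 and Ifitm1 (Y147F) in 1. Trim25, the ubiquitin ligase that acts with Ddx58, had the smallest p. It read 10.64, 10.73 and 10.82 in Y147F with T3, against 11.56, 11.48 and 11.64 in Y147F with PBS, and 10.39, 10.60 and 10.53 in WT with T3, against 11.05, 11.54 and 11.38 in WT with PBS. No T3 array reached a PBS array in either, and the differences were -0.83 in Y147F (limma, adjusted p = 2.46e-05) and -0.81 in WT (limma, adjusted p = 2.32e-05). Its response differed by 0.74 between KO and WT (limma, adjusted p = 0.00865) and by 0.60 between GS and WT (0.0375, lost in 9 of 12 fits without 1 array). Between KO and WT after T3, 7 of the 38 were called, 5 higher and 2 lower, against 6.93% of all genes. In GS 5 were called, 4 higher and 1 lower, against 5.61%. After PBS 3 were called in KO, 2 higher and 1 lower, and 3 in GS, all higher, against 6.87% and 2.95%. Ifi47 was higher in each of these comparisons (0.43 to 0.75). Its call in GS after PBS held in 2 of 6 fits without 1 array, and its other calls in all 6. Parp9, higher in KO after T3 (0.44), held in all 6 too. Of 10 class I antigen-presentation genes, 4 were higher in KO than in WT after PBS and 3 in GS, where 6.87% and 2.95% of all genes were called, led by the immunoproteasome subunit Psmb10 (0.48, adjusted p = 0.00209 in KO, and 0.41, 0.0111 in GS, the GS call lost in 3 of 6 fits without 1 array), alongside the call of Psmb8. The calls of Tapbp, Erap1 and H2-K1 in KO were lost in 5, 4 and 2 of 6 such fits, and those of Tapbp and Erap1 in GS in 6 and 4.

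Markers of other liver cells were read beside these results. In WT, T3 against PBS called 0 of 13 Kupffer cell markers, with 0 at an unadjusted p under 0.05 (limma). Of the 13, 12 had negative differences, and the median was -0.16, against -0.03 for all genes tested. Their mean lay at 8.74 to 9.04 with T3 against 8.98 to 9.06 with PBS. All 5 class II antigen-presentation genes had negative differences, with a median of -0.37. Limma called 0 of these 5, with 2 at an unadjusted p under 0.05. Limma also called 0 of 12 sinusoidal endothelial markers, 5 of them at an unadjusted p under 0.05, with means of 9.15 to 9.27 with T3 against 9.41 to 9.45 with PBS. The lists of monocytes and neutrophils, dendritic cells, and T and NK cells held 0 calls by limma, with 0, 1 and 0 genes at an unadjusted p under 0.05. Of the 5 B cell markers tested, limma called Ighm, the heavy chain of immunoglobulin M (2.19, adjusted p = 3.27e-05), while 3 of the 5 had negative differences and the median was -0.10. In Y147F, T3 against PBS, Ighm was also called higher (2.19, adjusted p = 4.26e-05), and Cd79b (-0.32, 0.0449) and Pax5 (-0.26, 0.0339) were called lower. All 13 Kupffer cell markers had negative differences in Y147F (median -0.22), with 0 called and 0 at an unadjusted p under 0.05 (limma). The part of these shifts in the changes of the interferon-stimulated genes was not tested.

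In the comparison of GS with WT after T3, Kupffer cell markers had a median of 0.47, with 1 of 13 called (Clec4f, 0.61, adjusted p = 0.0497, lost in 5 of 6 fits without 1 array, up to 0.23) and 10 at an unadjusted p under 0.05. Their mean was 9.01, 9.21 and 9.77 in GS with T3, against 8.74, 9.04 and 8.77 in WT with T3, so replicate 3 of GS lay apart. All 5 class II antigen-presentation genes were called in the same comparison (0.62 to 0.76), against 5.61% of all genes. T3 minus PBS for these 5 genes was higher in GS than in WT by 0.81 to 1.13. Again all 5 were called, against 2.92% of all genes. The medians of T3 minus PBS were 0.64 in GS and -0.37 in WT, and the mean after PBS was 8.98 in GS against 9.27 in WT. Each of these calls, in both comparisons, was lost without replicate 3 of GS with T3. For GS against WT after T3, the adjusted p (limma) without that array was 0.0743 to 0.221. The calls after T3 held in 2 to 5 of 6 fits without 1 array, and those of the response difference in 3 to 6 of 12. Of 8 hepatocyte markers, limma called Hnf4a higher (0.43, adjusted p = 0.000982) and Tat lower (-0.53, 0.0424) in GS than in WT after T3. Differences were positive for 4 of the 8 and negative for 4, with a median of -0.01. The Hnf4a call held in all 6 fits without 1 array and that of Tat in 1. The calls of Iigp1, Psmb8 and Tap1 in GS after T3 stood beside these shifts, and their share in them was not tested. Without replicate 3 of GS with T3, the Iigp1 call held and those of Psmb8 (adjusted p = 0.179), Tap1 (0.0909) and Irf9 (0.073) were lost. Replicate 2 of Y147F with PBS also stood apart in Kupffer cell markers, at 9.72 against 8.84 and 9.05, and without it the Y147F calls of Ifih1, Gbp3 and Parp14 held while that of Iigp1 was lost (0.129).

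**Figure D5:**
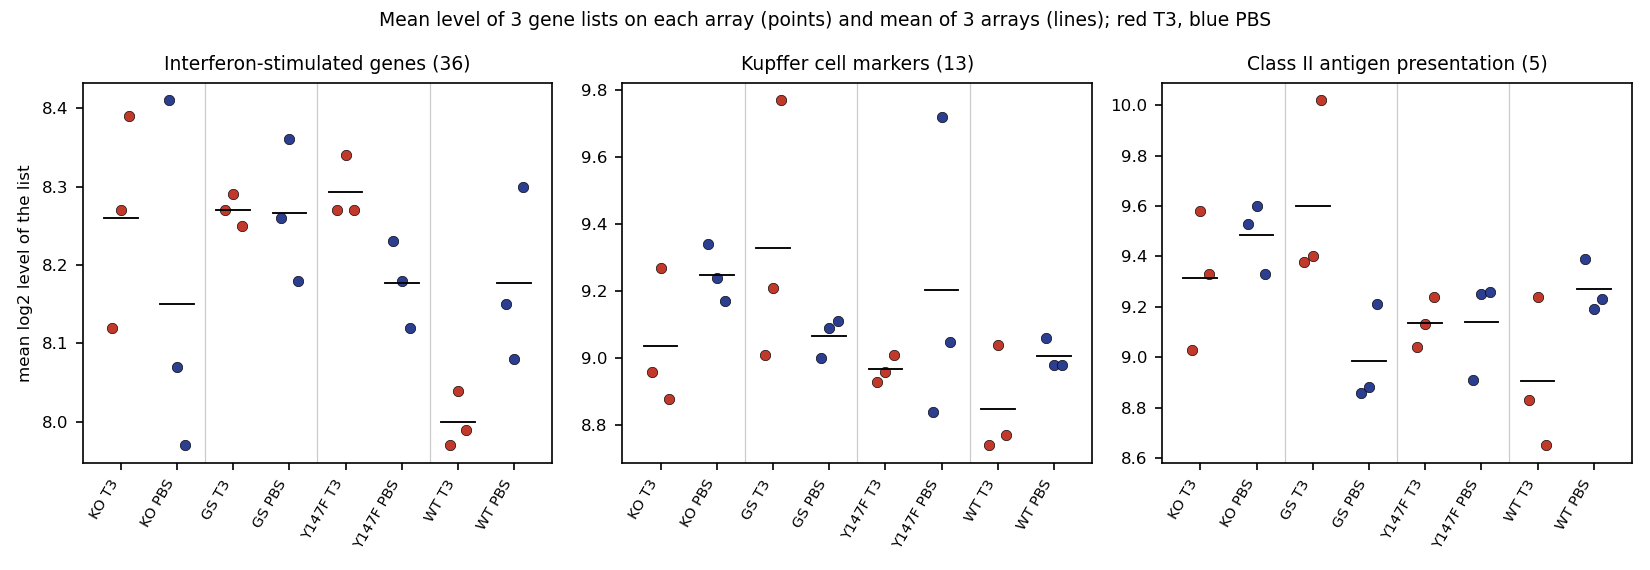
Mean log2 level of 36 interferon-stimulated genes, 13 Kupffer cell markers and 5 class II antigen-presentation genes on each array (points; red T3, blue PBS) and over 3 arrays (lines). For the interferon-stimulated genes the WT arrays with T3 lie at 7.97 to 8.04, and for Kupffer cell markers replicate 3 of GS with T3 (9.77) and replicate 2 of Y147F with PBS (9.72) lie apart.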

How the data were processed

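Liver RNA, 200 ng a sample, was labelled and hybridised to Affymetrix arrays, 24 in all, and the authors deposited 1 value table on the log2 scale; per the submitters' processing notes the values were made with RMA, and other steps are not given in the sources used here. The decimal marks were lost in the 6 Y147F columns and were restored so that values lay between 3 and 16; 1344 of 270606 cells (0.497%) that could also be spreadsheet day numbers were set missing. Dropping the decimal marks from the intact columns and restoring them gave 0 wrong of the 809111 values that were restored. Conversion to day numbers was not imitated, and the range of 3 to 16 fixes the place of the mark, so this checks the steps only. Gene names came from the platform annotation: of 45101 probe sets, 34958 had 1 symbol, 932 several and 9211 none.

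A gene was tested if its probe set passed the 40th percentile of its array on at least 3 arrays. limma 3.58.1 (R 4.3.3; tables with Python 3.11.15 and pandas 2.3.3) fitted 8 group means to all 24 arrays, with 16 residual and 4.28 prior degrees of freedom. All tests were two-sided, with Benjamini-Hochberg adjustment over the 14157 genes of each comparison, and a call is an adjusted p under 0.05. The spread is that between separate animals of 1 group. In data simulated for WT, T3 against PBS, over 13922 genes, the fit called 36% of genes changed 1.25-fold. It called 84% of genes changed 1.5-fold and 98% of those changed 2-fold. Only this comparison was simulated, and not the differences of responses between genotypes. The simulated noise was normal, all changes were upward, and fewer genes were changed than the 1504 called in the real comparison. The rates average over genes and were not worked out for the set, whose SE in this comparison reached 0.34 for Gbp6, against 0.11 for Ifih1.

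Genes named in the text are those of the set called in any comparison, the 4 with the smallest p per comparison, and the brightest and the dimmest. Called genes of the ligand, receptor, factor, sensor and inhibitor lists are named too. Of the other lists, only some called genes are named. The genes of the set and all lists were chosen with earlier results of these data known. Promoter windows and gene neighbours came from RefSeq (GRCm38.p6). Alternatives were quantile normalisation, other filters, the mean of probe sets, array weights, a variance trend, a covariate for the animals' number series, fits of the compared or the first-submitted arrays alone, omission of each array, and a threshold of 2-fold. Replicate numbers follow the order of deposit and pair nothing.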

Additional observations from a re-analysis of the deposited data

Results flagged for a closer look

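The response of Ifih1 to T3 differed between genotypes by the test of the difference itself: T3 minus PBS was 0.03 in GS, against 0.64 in WT, a difference of -0.62 ± 0.15 on the log2 scale (limma, adjusted p = 0.0323). Over all alternatives and left-out arrays short of the 2-fold threshold, its adjusted p lay between 0.008 and 0.0986. The GS arrays with T3 read 9.94, 9.81 and 9.83 and those with PBS 9.83, 9.97 and 9.70, while the WT arrays with T3 read 10.18, 10.28 and 10.20 and those with PBS 9.51, 9.42 and 9.81.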

How the results depend on the processing

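None of the 29 calls of these genes changed direction under any alternative that was run. Of estimates that were not called, some turned sign, in 37 of 592 with array weights, 38 with the number-series covariate, 25 with the mean of probe sets, 16 after quantile normalisation and 414 of 4440 without 1 array, all from reported differences of 0.30 or less. No paired analysis was possible because the labels give no numbers shared between groups. The counts below are of 37 genes called. With at least a 2-fold difference required, 0 were called for T3 against PBS in KO, Y147F and WT, for the response of GS against WT, for GS against WT after PBS, and for KO and GS against WT after T3, and 1 for KO against WT after PBS. For T3 in KO, 0 were called in the first-submitted arrays alone, in the compared arrays alone and with the number-series covariate. For the response of KO against WT, 1 was called with array weights, the 60th percentile filter, the compared arrays alone and a variance trend, and 2 in the first-submitted arrays alone; for GS against WT, 4 in the compared arrays alone. For GS against WT after PBS, 1 was called in the compared arrays alone. For KO against WT after T3, 10 were called with array weights, and 2 with the mean of probe sets and with the covariate. For GS against WT after T3, 9 were called with array weights, 8 with the 60th percentile filter and with a variance trend, 10 in the compared arrays alone, and 2 with the mean of probe sets. Among the first of these, Ifih1 was called lower with array weights (-0.35). It was also called lower with that filter, with a variance trend and in the compared arrays alone (-0.36 in each). For Y147F against WT after T3, 5 were called with array weights, Cmpk2, Herc6, Ifit1, Ifit3 and Rsad2. Leaving out 1 array gave 4 to 8 calls for T3 in WT, 0 to 1 in KO, 0 to 4 for the response of KO against WT, 0 to 1 for that of GS against WT, 2 to 5 for KO and 0 to 2 for GS against WT after PBS, and 1 to 5 for GS against WT after T3. The cause of these moves was not tested. The mean of probe sets moved the median of the genes to -0.10 for T3 in WT. Over all genes, array weights raised the count for Y147F against WT after T3 to 93, where 1 was called without them. The share of missing cells and the dimmest genes, Mx1 among them, limit precision.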
